A study of Sparassis latifolia with 12 samples.

Results

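Pyruvate decarboxylase (PDC, EVM0009327) and alcohol dehydrogenase 1 (ADH1, EVM0007108) are the enzymes of ethanol fermentation named in this study of cold-stored Sparassis latifolia. Their rows were taken by identifier, 2 of the 13103 mRNAs in the expression table, and both passed the filter that left 10962 mRNAs for testing. The mushroom, strain Minxiu No.1, was packed after picking in oriented polypropylene (OPP) film, divided at random into groups and kept at 4 ℃. Groups A, B, C and D are fruiting bodies frozen after 0, 8, 16 and 24 days, with 3 replicates and so 3 RNA libraries in each (12 in all), and group A is the fresh control. No group was left unpacked or stored at another temperature, so the effects of cold, film and time after picking cannot be told apart. Nothing says that the replicates of a day were different mushrooms or packages, so the p-values cover the spread between these samples alone and that spread may be technical.

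Ethanol fermentation lets a cell regenerate NAD+ for glycolysis without oxygen. PDC removes carbon dioxide from pyruvate, the end product of glycolysis, and releases acetaldehyde. Alcohol dehydrogenase then reduces acetaldehyde to ethanol with NADH, and fungi often carry several alcohol dehydrogenases, some of which work in the opposite direction. Sealed film can let the oxygen around respiring tissue fall, and fermentation enzymes are commonly followed in stored produce for that reason. The product names of these genes are those given by the study. Of the identifiers in the files, 0 were found among the locus tags of the available reference, and no sequence or position is given.

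The values are FPKM, read fragments scaled to transcript length and to the number of mapped fragments of the library, which allows levels of different genes to be compared per length. Each library was then rescaled by a median-of-ratios factor between 0.983 and 1.02, which gives scaled FPKM. The study gives the reads of each library, but the number of fragments behind a gene's value is unknown without read counts, and no counting interval is given. In whole fruiting bodies, a change in the amount of RNA per cell and a change in the share of cells that make it cannot be told apart. Of the fresh libraries, replicate 2 lay nearest to the stored samples on the first principal component of all mRNAs tested (score -53.2, against -82.0 and -72.4 for replicates 1 and 3, with -30.5 to -27.3 on day 24 and 44.8 to 53.7 on days 8 and 16). Fresh libraries had 12636 to 12886 mRNAs above 0, and those of days 8 and 16 had 10956 to 11061. On day 24 replicate 3 had 12789, against 11480 and 11133 in the other replicates of that day. By the study's read summary, a smaller share of reads mapped uniquely on days 8 and 24 than on days 0 and 16. Its error rate was lower on days 8 and 16, the days of the highest PDC values, than on days 0 and 24. Day cannot be told apart from these differences between libraries, and their effect on PDC and ADH1 was not tested.

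PDC mRNA was low in fresh fruiting bodies, was at its highest on days 8 and 16 and was lower again on day 24. On day 0 its scaled FPKM was 45.8, 145 and 63.4 in replicates 1, 2 and 3. On day 8 it was 1002, 710.5 and 561, and on day 16 it was 803, 417 and 884. By day 24 the libraries had 226, 309 and 333. All 9 stored libraries therefore lay above all 3 fresh ones, the libraries of days 8 and 16 overlapped, and those of day 24 lay below every library of days 8 and 16. Overlap is given here and below as a description, since its share over all mRNAs was not counted. The day means were 84.8 ± 53.0, 758 ± 224, 701 ± 249.6 and 289.6 ± 55.9 (SD, n = 3 each), so that day 24 stood at 38.2% of the day 8 mean.

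ADH1 mRNA was also low in fresh fruiting bodies, had its highest means on days 16 and 24 and was not called lower on day 24 than on any other day. Fresh fruiting bodies had scaled FPKM values of 29.1, 247 and 49.0 in replicates 1, 2 and 3. On day 8 the values were 788, 527 and 1642, on day 16 they were 3116, 3743 and 3109, and on day 24 they were 4841, 2436 and 2873. The groups of day 0, day 8 and day 16 did not overlap with each other, and the libraries of day 24 lay around those of day 16. Day means were 108 ± 121, 986 ± 583, 3323 ± 364 and 3384 ± 1281 (SD, n = 3 each), so that on day 8 ADH1 stood at 29.1% of its day 24 mean, when PDC was already at its highest mean.

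**Figure D1:**
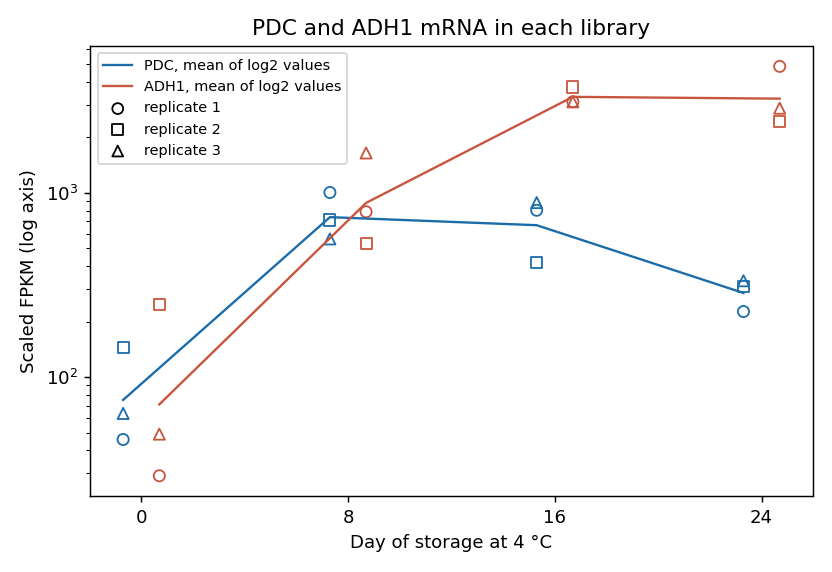
Scaled FPKM (log axis) of PDC and ADH1 in each of the 12 libraries against the day of storage, with a symbol per replicate and a line through the mean of the log2 values of each day. PDC is highest on days 8 and 16 (417 to 1002) and lower on day 24 (226 to 333), while ADH1 reaches 2436 to 4841 on days 16 and 24.

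Spread between replicates differed between the days as well as between the genes. On day 0 the highest ADH1 value was 8.48 times the lowest and the highest PDC value 3.17 times the lowest, with replicate 2 at the top for both. On day 16 the ADH1 values lay within 3109 to 3743, while the highest PDC value was 2.12 times the lowest, and on day 24 the ratios were 1.99 for ADH1 and 1.47 for PDC. PDC therefore varied more than ADH1 among the day 16 libraries, and ADH1 more than PDC on the other days.

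Both genes rose against day 0 on each stored day. The test was limma on log2(scaled FPKM + 1) over all 10962 mRNAs, a scale that understates changes of genes with low FPKM, and DE calls required an adjusted p under 0.05 together with an absolute log2 fold change of 1 or more. On day 8 PDC rose by 3.28 (standard error 0.429; limma adjusted p = 0.000121) and ADH1 by 3.61 (standard error 0.686; limma adjusted p = 0.00137). The arithmetic means, a different quantity that weights the high libraries more, were 8.94 and 9.09 times those of day 0. Day 16 gave a log2 fold change of 3.13 for PDC (limma adjusted p = 0.00016) and of 5.52 for ADH1 (limma adjusted p = 8.71e-05), with arithmetic means 8.27 and 30.6 times those of day 0. Day 24 gave 1.91 for PDC (limma adjusted p = 0.0102) and 5.49 for ADH1 (limma adjusted p = 0.00056), with arithmetic means 3.42 and 31.2 times those of day 0.

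Both members were called higher in each of these comparisons, where 13.6% of all mRNAs tested were called higher on day 8, 14.6% on day 16 and 6.66% on day 24. The 3 comparisons share their day 0 libraries. The study named these genes among those it called on the same libraries, so the direction against day 0 is no independent evidence. Among the log2 fold changes of all mRNAs tested, that of ADH1 was the 20th largest on day 8, the 10th on day 16 and the 13th on day 24. PDC held places 36, 74 and 234. Without day 0 replicate 2, which was the highest fresh library for both genes, the log2 fold changes of ADH1 were 4.51, 6.41 and 6.38 and those of PDC were 3.75, 3.60 and 2.39.

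**Figure D2:**
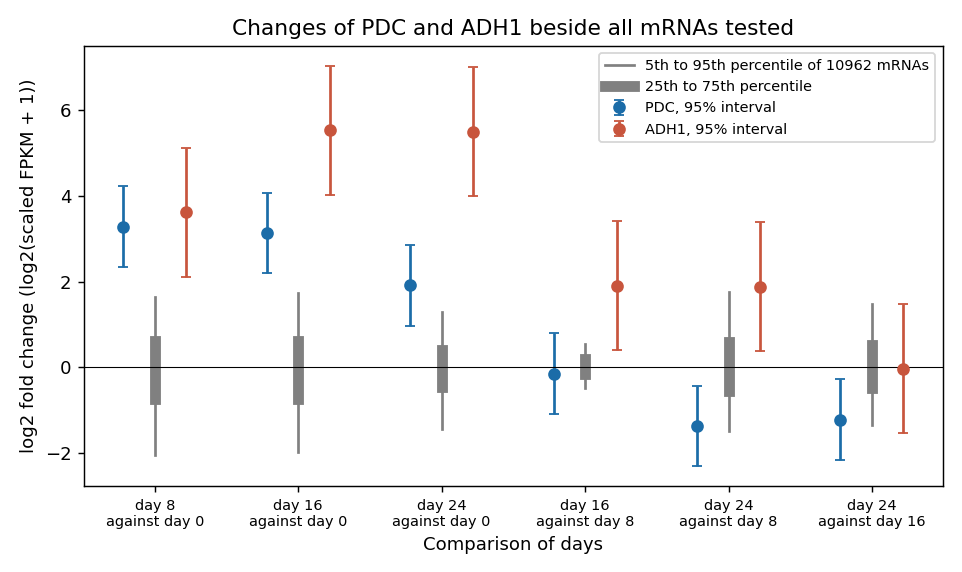
Log2 fold changes of PDC and ADH1 in the 6 comparisons of days (points, with 95% intervals from limma) beside the spread over the 10962 mRNAs tested (grey bars, 25th to 75th percentile; grey lines, 5th to 95th). Against day 0 both genes lie above the 95th percentile on each stored day, and on day 24 against day 8 PDC is at -1.36 and ADH1 at 1.88.

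From day 8 to day 24 the genes moved in opposite directions. PDC fell by 1.36 on the log2 scale (95% interval -2.30 to -0.42; limma adjusted p = 0.0259) and ADH1 rose by 1.88 (95% interval 0.37 to 3.38; limma adjusted p = 0.0488). Of all mRNAs tested, 10.7% were called lower and 12.9% higher in that comparison. Day 24 values of PDC and ADH1 did not overlap with those of day 8, but how many of all mRNAs share this was not counted. The call of ADH1 rests on a p close to the threshold, and it was lost when any 1 of the libraries of days 8, 16 and 24 other than day 8 replicate 3, or day 0 replicate 3, was left out (log2 fold changes 1.51 to 2.08, limma adjusted p 0.0572 to 0.166), with quantile normalization (1.27, limma adjusted p = 0.119), and with no filter, division by summed FPKM or a replicate block (limma adjusted p 0.0615 to 0.0724). That of PDC was lost without day 8 replicate 1, day 8 replicate 2, day 24 replicate 1 or day 24 replicate 2 (limma adjusted p 0.0546 to 0.0949), with log2 fold changes of -1.42 to -1.14.

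Changes between neighbouring stored days were less firm than those against day 0. From day 8 to day 16 the log2 fold change of ADH1 was 1.91 (95% interval 0.41 to 3.41), the 20th largest of 10962, with no overlap between the libraries, but the limma adjusted p was 0.886. No mRNA was called in that comparison (0%) by limma, with 537 at an unadjusted p under 0.05, and 0 were called in a fit of only those 2 groups (722 at an unadjusted p under 0.05). PDC had -0.15 (95% interval -1.09 to 0.80; limma adjusted p = 1), and its libraries of days 8 and 16 overlapped.

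From day 16 to day 24 PDC was called lower, with a log2 fold change of -1.22 (95% interval -2.16 to -0.28; limma adjusted p = 0.0482), where 8.96% of all mRNAs tested were called lower. Its call was lost without any 1 of 8 libraries (day 0 replicate 3, day 8 replicates 1 and 2, day 16 replicates 1 and 3, and each replicate of day 24; limma adjusted p 0.0522 to 0.155), and with no filter, no scaling or a replicate block (limma adjusted p 0.0523 to 0.0764). ADH1 had a log2 fold change of -0.03 (95% interval -1.54 to 1.47; limma adjusted p = 0.978), an interval that leaves room for a rise or fall of more than 1. By arithmetic day means, PDC was thus highest on days 8 and 16, then on day 24 and day 0. Its days 8 and 16 did not differ beyond the spread, and its calls of day 24 against each were lost without some single libraries. By arithmetic day means, ADH1 was highest on days 24 and 16, then on day 8 and day 0. Its days 24 and 16 did not differ beyond the spread. For ADH1, day 16 against day 8 was not called, and the call of day 24 against day 8 was lost without most single libraries.

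The ratio of ADH1 to PDC shows whether the steps changed by the same factor, and the scaling of the libraries cancels in it. On day 0 the ratio was 0.636, 1.70 and 0.772 in replicates 1, 2 and 3, and on day 8 it was 0.786, 0.742 and 2.93. On day 16 it was 3.88, 8.99 and 3.52, and on day 24 it was 21.4, 7.88 and 8.63. The transcripts were thus at about the same FPKM in fresh fruiting bodies and on day 8, with replicate 2 of day 0 and replicate 3 of day 8 above 1, and ADH1 exceeded PDC in all 6 libraries of days 16 and 24.

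Mean log2 ratios for days 0, 8, 16 and 24 were -0.09 ± 0.75, 0.26 ± 1.12, 2.31 ± 0.74 and 3.50 ± 0.80 (SD, n = 3 each), which are geometric mean ratios of 0.942, 1.19, 4.97 and 11.3. Days held 81.3% of the variance of the log2 ratio over the 12 libraries (exact permutation test over the 369600 assignments of libraries to days, p = 0.00325). Leaving out each library in turn gave 79.2% to 89.1% (exact permutation p 0.00188 to 0.0162).

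Day 8 differed little from day 0 in the ratio, by 0.34 on the log2 scale (95% interval -1.29 to 1.98 from the spread within days), and without day 8 replicate 3 the difference was -0.30. From day 8 to day 16 the log2 ratio rose by 2.06 (95% interval 0.42 to 3.69), a 4.16-fold change, with no overlap between the libraries. Between day 16 and day 24 the difference was 1.19 (95% interval -0.44 to 2.82), with day 16 replicate 2 (8.99) above 2 libraries of day 24. Against day 0 the ratio was 5.28-fold higher on day 16, and on day 24 the difference was 3.59 on the log2 scale (95% interval 1.96 to 5.22). With 3 libraries against 3 the two-sided exact permutation test cannot go below 0.1, which was its p in the 4 comparisons without overlap (Benjamini-Hochberg adjusted 0.15 over the 6 comparisons), while it was 0.6 for day 8 against day 0 and 0.3 for day 24 against day 16 (adjusted 0.6 and 0.36).

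**Figure D3:**
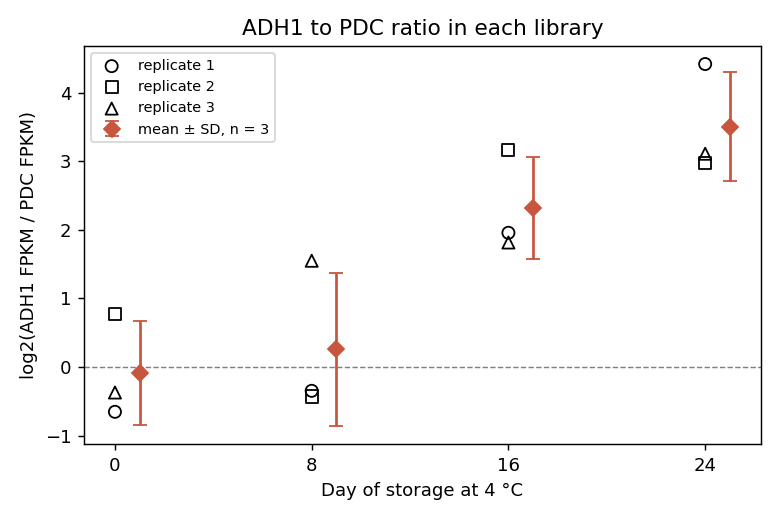
Log2 ratio of ADH1 FPKM to PDC FPKM in each library (open symbols) and the mean ± SD of each day (red, n = 3), against the day of storage. The dashed line marks equal FPKM, around which days 0 and 8 lie, while all 6 libraries of days 16 and 24 lie above it, at ratios of 3.52 to 21.4.

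Among all mRNAs, both genes moved from the upper part of the list to its top. Ranked by FPKM within each library, PDC held place 3562, 1049 and 2327 of 13103 in replicates 1, 2 and 3 of day 0, and ADH1 held place 4869, 548 and 3056. In replicate 2 of day 0 each gene was thus farthest up the list. On day 8 PDC stood at 41, 70 and 177 and ADH1 at 63, 117 and 49, so that each gene was the higher of the pair in some libraries.

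On day 16 ADH1 reached place 14, 10 and 14, and on day 24 place 15, 30 and 23. PDC held place 73, 166 and 72 on day 16 and fell back to 660, 446 and 379 on day 24. ADH1 alone made up 0.419% of the summed mRNA FPKM on day 16 (range 0.392% to 0.470%) and 0.379% on day 24 (0.290% to 0.521%), from 0.0136% on day 0 (0.00351% to 0.0301%). PDC took 0.0108% of the sum in fresh fruiting bodies, then 0.105%, 0.0886% and 0.0330% on days 8, 16 and 24.

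**Figure D4:**
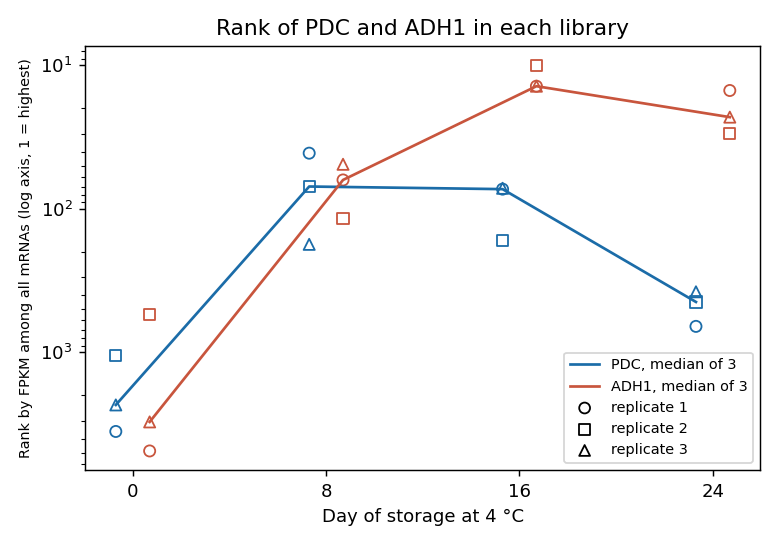
Rank of PDC and ADH1 by FPKM among 13103 mRNAs in each library (log axis, 1 is the highest), with a symbol per replicate and a line through the median of each day. The median rank of ADH1 goes from 3056 to 63, 14 and 23, and that of PDC from 2327 to 70, 73 and 446.

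Libraries of the same day did not show the genes varying together throughout. Since differences between days would set a correlation over all levels, none is given, and the mean of each day was removed from the log2 values instead. Over the 12 libraries Pearson's r was 0.427 (exact permutation within days, p = 0.481) and Spearman's rho was 0.224 (exact permutation p = 0.622). The sign of r rests on day 0, where replicate 2 was 0.94 above its day mean for PDC and 1.78 above it for ADH1. Without that library r was -0.392 (exact permutation p = 0.278), and without the 2 libraries farthest from the median of PDC, day 0 replicates 1 and 2, it was -0.545. Over the 6 libraries of days 8 and 16, with the difference of ADH1 between these days left in, r of the levels was -0.359 (exact permutation p = 0.5) and rho -0.371 (exact permutation p = 0.497), and r was 0.162 without day 16 replicate 2 and day 8 replicate 3. Over the 2 relations the Benjamini-Hochberg adjusted permutation p was 0.5 for each r and 0.622 for each rho.

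In single days the deviations were alike on day 0 and mostly opposite later. Both genes lay on the same side of their day means in 3 of 3 libraries of day 0, in 1 of 3 of day 8, and in 0 of 3 of days 16 and 24 each. Day 0 replicate 2, the highest fresh library for both genes, was also the fresh library nearest to the stored samples on the first principal component. On day 16 replicate 2 had the lowest PDC value and the highest ADH1 value. On day 24 replicate 1 did, and on day 8 replicate 3 did. The deviations of 3 libraries around their own mean are not independent, so these counts are a description and were not tested.

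**Figure D5:**
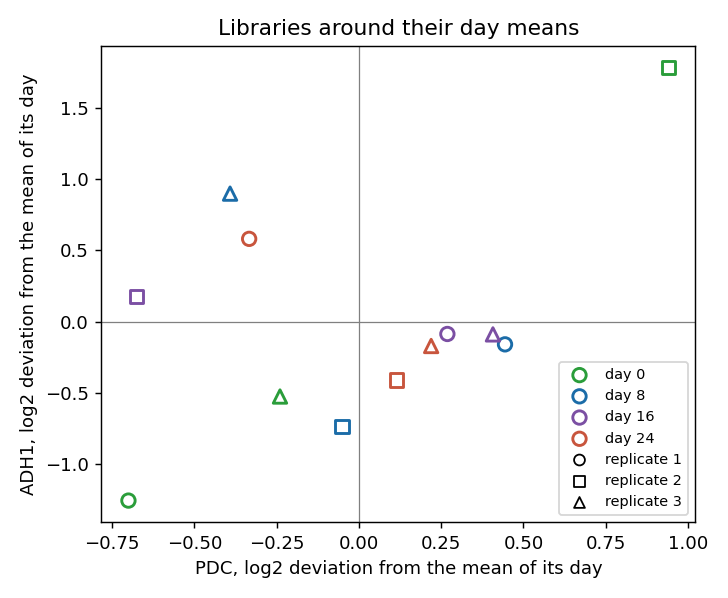
Deviation of each library from the mean of its day in log2(scaled FPKM + 1), PDC on the horizontal and ADH1 on the vertical axis, with a colour per day and a symbol per replicate. The day 0 libraries run from lower left to upper right (replicate 2 at 0.94 and 1.78), and the libraries of days 16 and 24 all lie in the quadrants where the deviations have opposite signs.

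Patterns over the 12 libraries were compared by the root mean square difference between log2 values after each gene's own mean was removed, among 8052 other mRNAs with a mean FPKM of at least 10. By this measure EVM0001842 was nearest to PDC, at 0.305, against a median of 1.46 over those mRNAs. Its scaled FPKM was 28.9 ± 26.5, 208 ± 45.8, 213 ± 45.6 and 67.8 ± 20.0 on the successive days (SD, n = 3 each), lower than PDC on each day and, like PDC, with its highest means on days 8 and 16. Nearest to ADH1 was EVM0012109, at 0.836 (median 2.40), with 33.6 ± 33.9, 147 ± 59.3, 294 ± 27.4 and 380.4 ± 54.0 on the 4 days. The files do not pair these identifiers with products. ADH1 thus had no neighbour as near as that of PDC. PDC was the 155th nearest mRNA to ADH1, and ADH1 the 5350th nearest to PDC, at a difference of 1.63. The measure keeps the size of the changes, which was larger for ADH1, so these distances and places do not compare shape alone.

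Other enzymes of energy metabolism that the study names rose against day 0 as well, and the study chose these too on the same libraries. They are pyruvate kinase (PK, EVM0009831), which makes the pyruvate that PDC uses, formate dehydrogenase (FDH, EVM0012176), which oxidizes formate to carbon dioxide, and glycerol-3-phosphate dehydrogenase (GPDH, EVM0008918), which joins glycolysis to glycerol metabolism. All 3 were called higher on days 8, 16 and 24, where 13.6%, 14.6% and 6.66% of all mRNAs tested were called higher. PK had log2 fold changes of 1.57, 1.83 and 1.91 (limma adjusted p 0.0144, 0.00642 and 0.0133), and its day 24 call was lost without day 24 replicate 1 or 3 (limma adjusted p 0.0544 and 0.0597) and its day 8 call in a fit of only days 0 and 8 (limma adjusted p = 0.0687). FDH had 3.16, 3.72 and 3.56 (limma adjusted p 0.00367, 0.00133 and 0.00564) and GPDH 2.51, 2.84 and 2.21 (limma adjusted p 0.000286, 0.000125 and 0.0026).

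Per length, PK was far above PDC in fresh fruiting bodies, with a mean scaled FPKM of 1036 ± 304 on day 0, and stood at 3878 ± 958 on day 24 (SD, n = 3 each), near ADH1 on that day. FDH had 26.0, 133 and 26.0 in replicates 1, 2 and 3 of day 0 and 377, 159 and 1152 on day 8. The highest FDH library was replicate 2 on day 0, replicate 3 on day 8 and replicate 2 on day 16 (698), as for ADH1. On day 24 it was replicate 2 (668), the lowest of that day for ADH1. Replicate 2 of day 0 was also the highest fresh library for PK (1385) and GPDH (9.86), so its high values are not particular to PDC and ADH1.

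The study listed 3 long non-coding RNAs (lncRNAs) for PDC and 6 for ADH1 as trans pairs, by a correlation of at least 0.85 between expression values over these libraries. On FPKM all 3 and all 6 reached 0.85 with their own gene, and none (0 of 9) reached it with the other gene of the pathway. In all, 44 of 1003 lncRNAs reached 0.85 with PDC and 8 with ADH1, and 0 with both. Since the lists were made by correlation over the same libraries, a pattern shared with the gene is how these lncRNAs were chosen.

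The lncRNAs listed for PDC were lower again on day 24, and those listed for ADH1 were not called lower. XLOC_010553, the most abundant of those listed for PDC, had scaled FPKM means of 183 ± 15.1, 1036 ± 98.9, 985 ± 147 and 477 ± 111 for days 0, 8, 16 and 24 (SD, n = 3 each). XLOC_010553, XLOC_006906 and XLOC_002973 fell from day 8 to day 24, with log2 fold changes of -1.14, -1.22 and -1.20 (limma adjusted p over the lncRNAs 0.0021, 0.039 and 0.0135), where 13.6% of the 1002 lncRNAs tested were called lower. From day 16 to day 24 they fell with -1.06, -1.61 and -1.28 (limma adjusted p 0.00449, 0.0151 and 0.0132; 10.2% of all called lower). Of those listed for ADH1, 1 of 6 was called higher on day 24 than on day 8, XLOC_012207 with a log2 fold change of 1.45 (limma adjusted p = 0.0434; 23.2% of all called higher), and 0 of 6 were called in either direction between days 16 and 24 (26.7% of all).

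Against day 0, 8 of the 9 listed lncRNAs were called higher on day 8 (16.9% of all lncRNAs tested), 9 on day 16 (16.8%) and 8 on day 24 (5.59%), and without day 24 replicate 1 the number on day 24 was 5. The study predicted targets for lncRNAs that it had called against day 0 on these same libraries. These counts therefore largely follow from how the lists were made and are no independent evidence beside the shares of all lncRNAs. XLOC_002861, listed for ADH1 and also named by the study as the cis lncRNA of FDH, was the most abundant of the 9. It had 2424, 3354 and 1888 in the day 0 replicates, 4302, 3461 and 14006 on day 8, 10906, 12517 and 11503 on day 16 and 27662, 8205 and 16499 on day 24. Its replicate 3 of day 8 and replicate 1 of day 24 were the highest of their days, as were those of ADH1. Day means of the other 5 listed for ADH1 were 4.88 to 73.2 in fresh fruiting bodies, 19.3 to 243 after 8 days, 37.4 to 339 after 16 days and 43.1 to 302 after 24 days.

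With day means removed from the log2 values, the correlations of the listed pairs were 0.144 to 0.492 for PDC and 0.129 to 0.775 for ADH1 (Pearson's r, n = 12 libraries). Each was below 0.85, the threshold that the pairs reached on FPKM. Of the 9 pairs, 3 had a Benjamini-Hochberg adjusted p under 0.05 for r and 0 for Spearman's rho, by exact permutation within days. They were ADH1 with XLOC_002861 (r = 0.67, rho = 0.762), XLOC_012886 (r = 0.65, rho = 0.636) and XLOC_004491 (r = 0.492, rho = 0.622), each with an adjusted permutation p of 0.0463 for r and 0.0694 for rho. Without the 2 libraries farthest from the median of the lncRNA, r was 0.728, 0.501 and 0.577. The pairs were chosen by correlation over these same libraries, which deviations within days enter, so these p-values are no independent support. Among the 8 lncRNAs that reached 0.85 with ADH1 on FPKM, the median r with day means removed was 0.634. With day means removed, 7 of 1003 lncRNAs reached 0.85 with ADH1, and 0 of those 8 were among them. For PDC 3 of 1003 did, and 0 of its 44 were among them. The scale changed from FPKM to log2 as well, so the effects of scale and of removing day means cannot be told apart here.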

How the data were processed

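Libraries were depleted of ribosomal RNA and kept strand. Per the submitters' notes and the methods, FPKM came from the authors' StringTie 1.3.3b run on HISAT2 2.1.0 alignments, after read trimming (cutadapt 2.7) and quality checks (FastQC 0.11.8). The deposited FPKM values, one column per library for 13103 mRNAs and 1003 lncRNAs, are normalized by the authors for transcript length and mapped fragments. The sources used here do not give whether strand was used in that step. Read counts and the DESeq2 test of the study were not used here.

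Columns were mapped to day and replicate by name. FPKM was divided by median-of-ratios factors, genes with at least 1 FPKM in at least 3 libraries were kept (10962 mRNAs, 1002 lncRNAs), and log2(scaled FPKM + 1) was fitted with limma 3.58.1 in R 4.3.3 (trend on, 4 day groups, Benjamini-Hochberg adjustment within mRNAs and within lncRNAs). Ratios and within-day correlations were tested by exact permutation (Python 3.11.15, scipy 1.17.1). The procedures were tested on simulated data. Named genes are the members, the other energy genes and trans lncRNAs listed by the study, and the mRNA with the nearest pattern to each member. Members, lists and tests were chosen with earlier results of these data known. Alternatives were a pseudocount of 0.1, no filter or a mean FPKM of at least 5, 3 other scalings, a fit of 2 groups, a replicate block and each library left out. The alternatives for PK, FDH, GPDH and the lncRNA counts were chosen after seeing the data.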

Additional observations from a re-analysis of the deposited data

How the results depend on the processing

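The rises of PDC and ADH1 against day 0 kept their direction and their calls under each alternative run, with log2 fold changes of 1.56 to 3.75 for PDC and 2.98 to 6.41 for ADH1 when single libraries were left out. The changes between stored days were less firm. For ADH1 on day 24 against day 8 the log2 fold change was 1.88 with no filter, 1.27 with quantile normalization and 1.64 with division by summed FPKM (limma adjusted p 0.0711, 0.119 and 0.0615), no longer called, and 1.51 to 2.32 without single libraries. For PDC on day 24 against day 16 it was -1.22 with no filter and -1.20 with no scaling (limma adjusted p 0.0663 and 0.0523), no longer called, and -1.56 to -1.02 without single libraries. For PDC on day 24 against day 8 it was -1.56 to -1.14 without single libraries. The cause of these losses was not tested.

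The values do not settle whether replicate numbers pair the libraries. Deviations of same-numbered libraries of different days correlated at -0.371 to 0.351 (4 of 18 pairs over 0.1). Those of differently numbered libraries correlated at -0.282 to 0.341 (8 of 36 pairs over 0.1). Yet 7 of 12 libraries correlated best with one of their own number. With the replicate number as a block, ADH1 on day 24 against day 8 (1.88) and PDC on day 24 against day 16 (-1.22) were not called (limma adjusted p 0.0724 and 0.0764), the ratio of ADH1 to PDC had 81.7% of its variance between days (exact permutation p = 0.0191), and no other call of PDC or ADH1 changed.

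Differences near 0 changed sign without single libraries: -0.35 to 0.19 for PDC on day 16 against day 8, -0.32 to 0.17 for ADH1 on day 24 against day 16, and -0.30 to 0.77 for the log2 ratio on day 8 against day 0. The within-day correlation of the genes was -0.392 to 0.633 without single libraries, -0.453 on scaled FPKM without log and -0.545 without the 2 libraries farthest from the median of PDC. FPKM without counts limits each value, since the number of fragments behind it is unknown.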
